A study of Mus musculus with 11 samples.

Results

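Mas1 encodes the G protein-coupled receptor for angiotensin-(1-7), and it was followed here with 6 further genes of the brain renin-angiotensin system in cells sorted as mPFC CRF1+ neurons, that is, neurons of the medial prefrontal cortex that express the corticotropin-releasing factor receptor CRF1. The 7 genes, of 53465 in the deposited tables, are Mas1, Agt, Agtr1a, Agtr2, Ace, Atp6ap2 and Lnpep. They were picked by name, and Mas1 was picked because its level was lower in the ethanol samples, so its difference between groups is given as a description without a test.

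Each library held RNA from cells that were sorted by fluorescence from the mPFC of 1 adult male CRF1:GFP mouse (at least 10 weeks old), a reporter line in which GFP marks cells that express Crhr1. Naïve mice (n = 6) received the alcohol dehydrogenase inhibitor pyrazole and breathed air. Withdrawn mice (n = 5) were exposed to intermittent ethanol vapor for 5 to 6 weeks while given ethanol and pyrazole by injection, and tissue was taken at day 5 to 8 of abstinence, so both groups carried the reporter and were given pyrazole. For withdrawn replicates 3, 4 and 5 a further label reads control, against their title and recorded treatment, and the deposit's design text gives 5 control and 6 ethanol animals, so values without these 3 mice are also stated. Only cells from this sort in male mice were sampled, and other brain regions and females are not covered. Markers of other cell types were also present, as given below.

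The libraries held between 7351567 and 22244869 counts assigned to genes. Withdrawn replicate 4 had the fewest of these counts and the most genes detected (31830). In that library 48.1% of the tallied reads fell on no annotated gene. This share was 13.3 to 39.6% in the other withdrawn mice and 5.77 to 31.5% in naïve mice. Levels are CPM, counts scaled to a common library total, with library sizes adjusted by the TMM method, and 3 counts, the floor used here, correspond to 0.135 to 0.408 CPM before that scaling. Reads amplified from 160 pg of RNA are not independent molecules, so the floor covers counting error only. Crhr1 was present in all libraries (42.2 to 136 CPM), and the excitatory marker Slc17a7 (738 to 1928 CPM) exceeded the inhibitory marker Gad2 (7.52 to 130 CPM) in every mouse. The sum of 8 inhibitory neuron markers, Gad2 included, was uneven, at 76.3 to 935 CPM in naïve and 30.4 to 732 CPM in withdrawn mice. Of these, Sst stood at 699, 473, 23.3, 0.175, 0.0677 and 289 CPM in naïve replicates 1 to 6 and at most at 32.6 CPM in withdrawn mice. The summed level of 10 fibroblast markers, which the sort should leave out, was 0.0677 to 81.3 CPM in naïve mice, 18.4 CPM in withdrawn replicate 2 and 241 to 1356 CPM in the other withdrawn mice. The sum of 10 endothelial markers ran from 40.8 to 862 CPM in naïve and from 64.7 to 729 CPM in withdrawn mice.

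In the classical renin-angiotensin pathway, renin cuts angiotensinogen to angiotensin I, and angiotensin-converting enzyme turns this into angiotensin II, which acts on the AT1 and AT2 receptors. In the counter-regulatory arm, several peptidases form angiotensin-(1-7), the ligand of Mas. In the brain the pathway is known for its part in thirst, blood pressure and stress responses, astrocytes are regarded as the main source of angiotensinogen, and Mas1 is known to be expressed in neurons of the cortex and hippocampus.

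Mas1 lies on the minus strand of chr17:12841079-12868143 (GRCm38), Atp6ap2 on chrX:12587801-12617049, Agt on chr8:124556534-124569706, Agtr1a on chr13:30336441-30382867, Agtr2 on chrX:21484544-21489164, Ace on chr11:105967945-105989964 and Lnpep on chr17:17521410-17625050. The antisense gene Airn runs across part of Mas1 on the opposite strand, but they share 0 exonic bases. Ace shares 295 exonic bases with the antisense gene Gm11651, and since whether the counting used strand is not given in the sources used here, reads there cannot be told apart.

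The promoters of the gene with the large difference, Mas1, and of the most abundant member, Atp6ap2, are shown for their contrast in base composition. Both are the 250 bases before the RefSeq start, read 5′ to 3′ on the gene's strand (GRCm38.p6), at chr17:12868144-12868393 on the minus strand and chrX:12587509-12587758 on the plus strand. Capitals mark matches, on either strand, to 3 short promoter motifs. The TATA box was searched as the letters TATAAA. The second motif, bound by the factor NF-Y, was searched as CCAAT. The third, the GC box bound by Sp1, was searched as GGGCGG.

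Mas1: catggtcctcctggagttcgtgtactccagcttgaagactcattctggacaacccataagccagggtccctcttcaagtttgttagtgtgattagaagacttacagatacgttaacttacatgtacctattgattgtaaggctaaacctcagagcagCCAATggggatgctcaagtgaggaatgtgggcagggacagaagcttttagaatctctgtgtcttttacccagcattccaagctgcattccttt

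Atp6ap2: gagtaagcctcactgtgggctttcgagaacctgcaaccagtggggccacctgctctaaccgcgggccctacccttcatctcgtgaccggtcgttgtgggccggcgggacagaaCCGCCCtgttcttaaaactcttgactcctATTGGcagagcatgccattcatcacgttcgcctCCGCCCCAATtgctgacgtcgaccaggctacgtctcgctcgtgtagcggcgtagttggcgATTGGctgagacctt

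The Mas1 window held 1 CCAAT match, no match to the other motifs and 2 CG dinucleotides, and 18.8% of 32851 RefSeq mouse promoter windows of this length had fewer. The Atp6ap2 window held 3 CCAAT and 2 GC box matches, of which a pair overlaps, and 20 CG dinucleotides, and 82.1% of windows had fewer. The median window had 6. Over all these windows CCAAT was present in 33.8%, GGGCGG in 32.7% and TATAAA in 12.4%. These matches describe the letters and say nothing on binding.

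Mas1, the angiotensin-(1-7) receptor, was present in all mice, with 164 to 1195 counts. In naïve replicates 1 to 6 it stood at 92.2, 59.8, 89.2, 67.1, 80.9 and 59.0 CPM. In withdrawn replicates 1 to 5 it stood at 22.3, 31.2, 38.3, 20.2 and 32.0 CPM. Every withdrawn mouse was below every naïve mouse, and the lowest naïve value was 1.54 times the highest withdrawn value.

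Naïve mice had a mean of 74.7 ± 14.7 CPM (SD, n = 6). Withdrawn mice had a mean of 28.8 ± 7.49 CPM (SD, n = 5), so that the withdrawn mean was 38.6% of the naïve mean. The fitted log2 fold change was -1.37 (SE 0.22). Of the 17093 genes with enough counts to test, 44 (0.257%) were lower in every withdrawn than in every naïve mouse, and Mas1 had the fifth largest fitted fall among them. The spread within groups was a CV of 19.7% in naïve mice, where the median of 4979 genes of similar abundance (mean CPM between 0.5 and 2 times that of Mas1) was 29.4%, and 26.0% in withdrawn mice, where their median was 25.5%. A pick for a fall in these same values favours a small spread, so this comparison is a description.

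**Figure D1:**
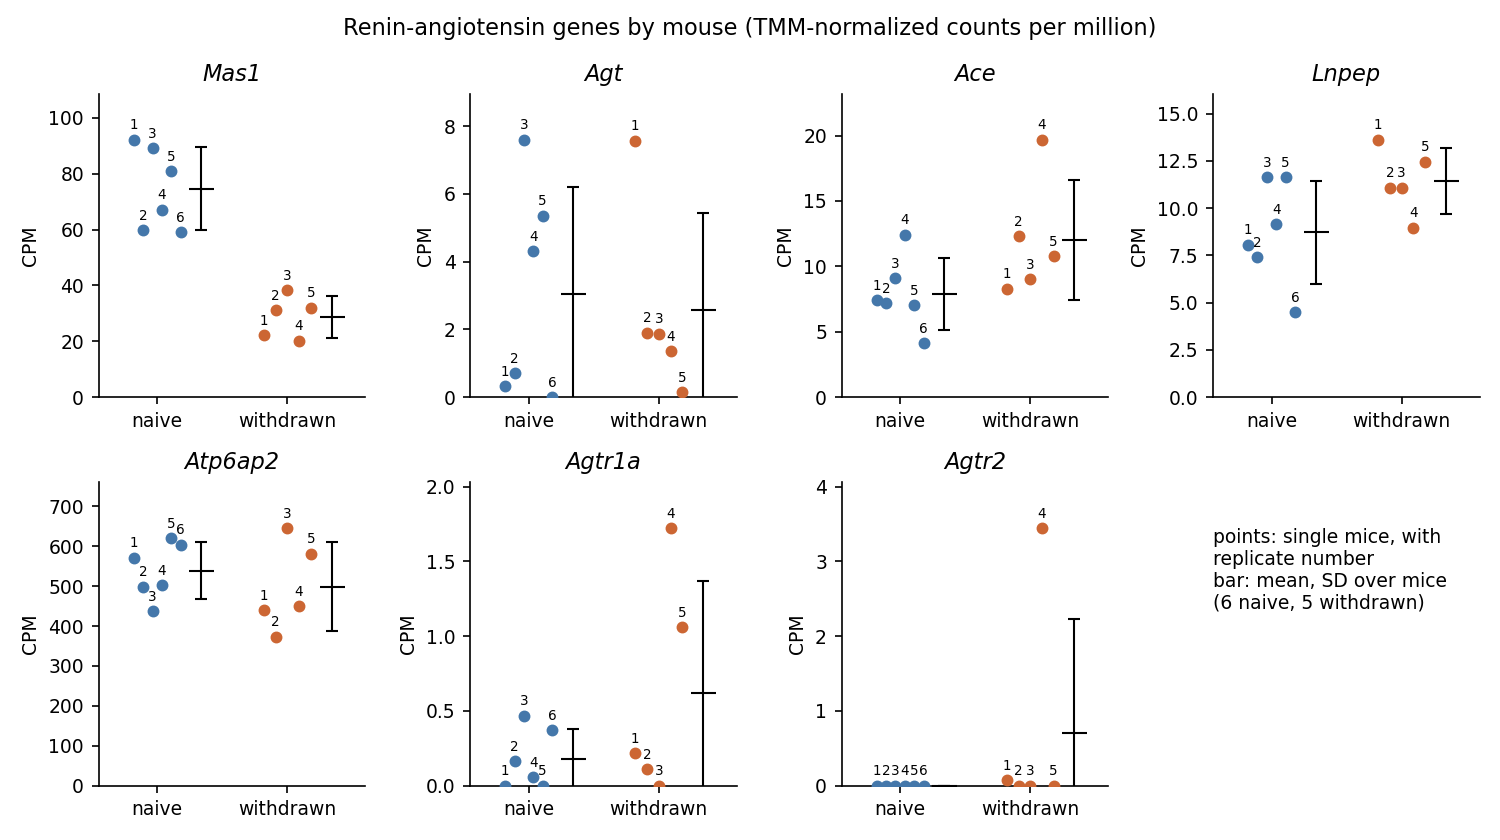
TMM-normalized CPM of the 7 genes (y axis, from 0, a separate scale per gene) in each of 6 naïve (blue) and 5 withdrawn mice (orange), numbered by replicate. Black marks give the mean and SD, cut at 0. For Mas1 the withdrawn mice lie at 20.2 to 38.3 CPM, all below the naïve mice at 59.0 to 92.2 CPM, and the groups overlap for the other genes.

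Leaving out the 3 mice with conflicting labels, the remaining withdrawn mice stood at 22.3 and 31.2 CPM, and the log2 fold change was -1.54 (SE 0.31). Withdrawn replicate 2, whose fibroblast markers were within the naïve range, had 31.2 CPM of Mas1, inside the range of the other withdrawn mice. This is 1 mouse, and a link between fibroblast RNA and Mas1 was not tested. With the fibroblast marker score as a covariate, a fit chosen after seeing the data, the Mas1 log2 fold change was -1.17 (SE 0.27). Over all 22 alternative fits it ran from -1.54 to -1.17.

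Of 8 glutamatergic neuron markers, 7 had a fitted change below 0, the direction of Mas1. So did 6 of 8 deep-layer and 3 of 7 upper-layer markers. The share below 0 was 48.2% over all tested genes and 59.9% over the 8245 with a mean of at least 20 CPM. The summed level of the glutamatergic markers was 2949 to 4460 CPM in naïve and 1918 to 4094 CPM in withdrawn mice, ranges that overlap. Per 1000 CPM of these markers, Mas1 stood at 15.1 to 27.4 CPM in naïve and 7.63 to 10.5 CPM in withdrawn mice, without overlap. Per 1000 CPM of 7 upper-layer markers the ranges were 88.9 to 205 and 34.3 to 85.8, again without overlap. Per 1000 CPM of 8 deep-layer markers they were 93.8 to 242 and 39.3 to 87.4, also without overlap. Mas1 was picked for its fall and separated the groups before this scaling, so these ranges are a description. In sorted bulk samples, fewer Mas1-expressing cells and less Mas1 RNA per cell cannot be told apart.

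**Figure D2:**
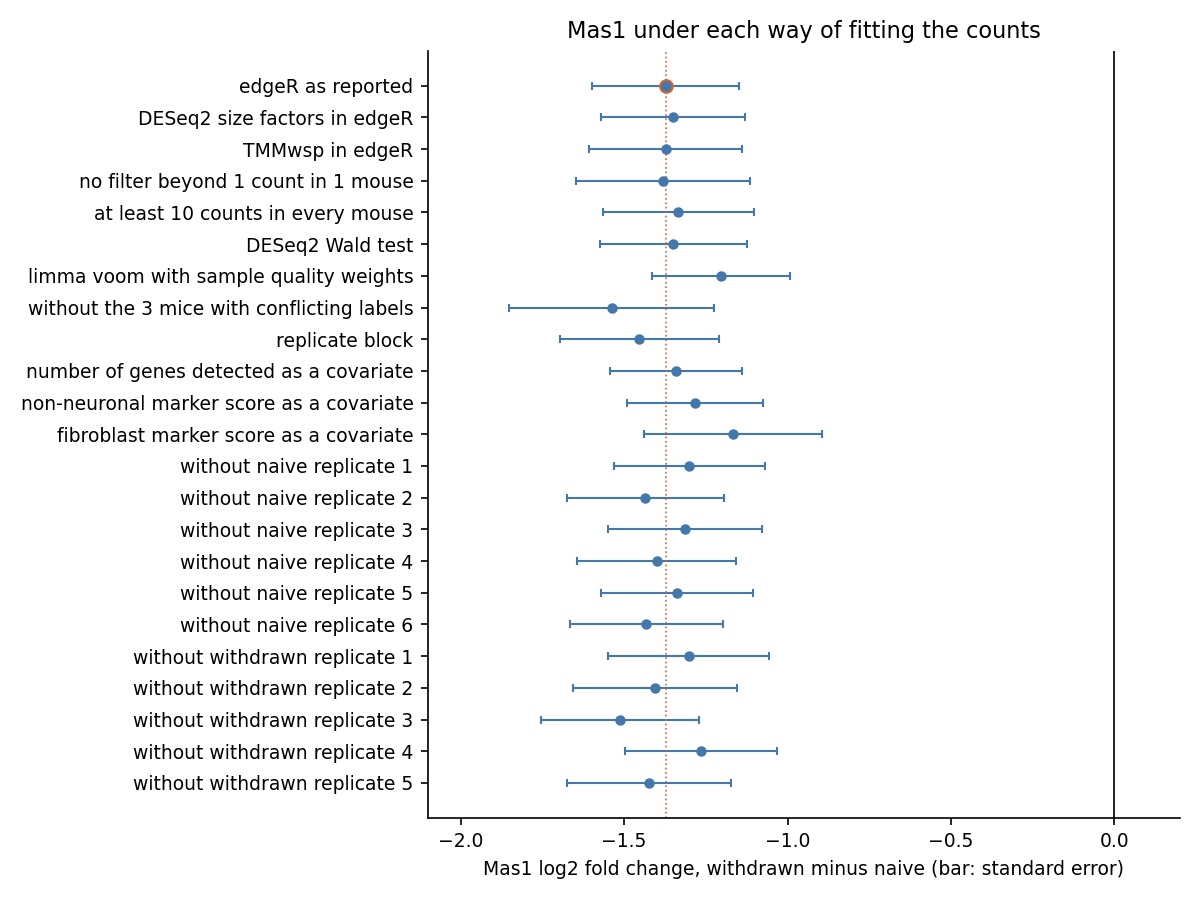
Fitted Mas1 log2 fold change (x axis, withdrawn minus naïve, with its standard error) under the edgeR fit and each alternative (y axis). All values lie between -1.54 and -1.17, and the line at 0 marks no difference. Mas1 was picked for its fall in these counts, so the fits describe it and do not test it.

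Atp6ap2, the (pro)renin receptor, which is also an accessory subunit of the vacuolar proton pump, was the most abundant member. Its naïve values were 571, 498, 437, 502, 620 and 604 CPM. Its withdrawn values were 440, 373, 645, 450 and 581 CPM. The groups overlapped throughout, and withdrawn replicate 3 was the highest and withdrawn replicate 2 the lowest of all mice. The log2 fold change was -0.11 (SE 0.16, adjusted p = 0.940 over all tested genes by edgeR's quasi-likelihood test), and the two-sided exact permutation p on log2 CPM was 0.409.

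Ace, angiotensin-converting enzyme, stood at 7.41, 7.19, 9.09, 12.4, 7.04 and 4.14 CPM in naïve mice. In withdrawn mice it stood at 8.28, 12.3, 9.02, 19.7 and 10.8 CPM. Withdrawn replicate 4 was the highest and naïve replicate 6 the lowest, and 1 naïve mouse, replicate 4, reached into the upper withdrawn values. The naïve mean was 7.88 ± 2.73 CPM (SD, n = 6). The withdrawn mean was 12.0 ± 4.56 CPM (SD, n = 5), and the log2 fold change was 0.61 (SE 0.42, adjusted p = 0.836, edgeR). The exact permutation p was 0.0779, and the difference did not pass the test.

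Lnpep is a membrane aminopeptidase that binds angiotensin IV, the site once called the AT4 receptor. Naïve mice had 8.06, 7.41, 11.6, 9.14, 11.6 and 4.51 CPM. Withdrawn mice had 13.6, 11.1, 11.1, 8.98 and 12.5 CPM. Naïve replicate 6 was the lowest and the groups overlapped. The log2 fold change was 0.39 (SE 0.38, adjusted p = 0.896, edgeR). The exact permutation p was 0.0996, and 0.0455 where library totals were used without TMM scaling, a call that the main scaling did not give.

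Agt, angiotensinogen, the precursor of all angiotensin peptides, was low and uneven. Naïve mice had 0.322, 0.714, 7.59, 4.31, 5.35 and 0 CPM. Withdrawn mice had 7.56, 1.90, 1.87, 1.35 and 0.141 CPM. High and low mice occurred in both groups, and the counts behind these values ran from 0 to 105. The log2 fold change was -0.24 with an SE of 1.2 (adjusted p = 0.984, edgeR), and its sign changed in 5 of 21 alternative fits. The difference in mean log2 CPM, 0.18, had the opposite sign, with an exact permutation p of 0.892. Summed astrocyte markers were 110 to 334 CPM in naïve and 81.6 to 835 CPM in withdrawn mice, and the 4 highest Agt values were in mice with sums of 110 (naïve replicate 3), 747 (withdrawn replicate 1), 159 (naïve replicate 5) and 157 CPM (naïve replicate 4). Of the 10 astrocyte markers 10 had a count and 9 were tested, 4 with a fitted change above 0 and 5 below. Aldoc was at 50.9 to 133 CPM in naïve and 34.9 to 86.8 CPM in withdrawn mice, and Gfap at 0 to 41.6 and 0 to 4.55 CPM. Gja1 and Gjb6 reached 309 and 328 CPM in withdrawn mice, against at most 31.9 and 17.4 CPM in naïve mice.

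Agtr1a, the main AT1 receptor gene of the mouse, and Agtr2, the AT2 receptor gene, did not have enough counts for the across-gene test. Agtr1a had 0, 3, 5, 1, 0 and 6 counts in naïve and 3, 1, 0, 14 and 15 counts in withdrawn mice, so that 4 of 11 mice were above the floor of 3 counts. The highest value was 1.72 CPM, in withdrawn replicate 4, and the exact permutation p was 0.275. Agtr2 had 0 counts in all 6 naïve mice, 1 in withdrawn replicate 1, 28 (3.44 CPM) in withdrawn replicate 4 and 0 in the other withdrawn mice. The groups overlapped for both genes, and the exact permutation p for Agtr2 was 0.182. No fold change is given for Agtr2, as 1 mouse carried nearly all its counts.

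In the fit that left out the 3 mice whose labels conflict, the values were -0.46 for Atp6ap2, 0.33 for Ace, 0.46 for Lnpep and 0.62 for Agt as log2 fold changes, with adjusted p of 0.789, 0.948, 0.918 and 0.960 (edgeR), so the sign of Agt turned and none passed the test. Nearly all Agtr2 counts and most Agtr1a counts came from mice among these 3.

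Per kilobase of exon, the 7 genes fell into a wide order of levels. In naïve mice Atp6ap2 stood at 206 ± 27.2 CPM per kb, Mas1 at 28.5 ± 5.61, Agt at 1.61 ± 1.67, Ace at 1.49 ± 0.517, Lnpep at 0.617 ± 0.193, Agtr1a at 0.0635 ± 0.0717 and Agtr2 at 0 (SD, n = 6 each). The Mas1 level per length exceeded that of 87.7% of the tested genes, and the Atp6ap2 level exceeded that of 98.8%, whereas those of Ace and Agt exceeded 32.2% and 33.7%. Atp6ap2 was above Mas1 in every mouse, by 4.90 to 10.2 times in naïve and 12.0 to 22.3 times in withdrawn mice, and Mas1 was above Ace in every mouse.

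Agt and Ace, neighbours in that order, were not separated, as Ace was the higher in 4 of 6 naïve mice, and Agt and Lnpep were not separated either, as Agt was higher in 3 of 6. Ace was above Lnpep in all 6. In withdrawn mice the mean level per length of Mas1 was 11.0 ± 2.86 CPM per kb (SD, n = 5) and it stayed second. Mas1 stood at 2.07 to 8.57 times Ace per length in withdrawn mice and at 10.9 to 28.8 times in naïve mice.

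**Figure D3:**
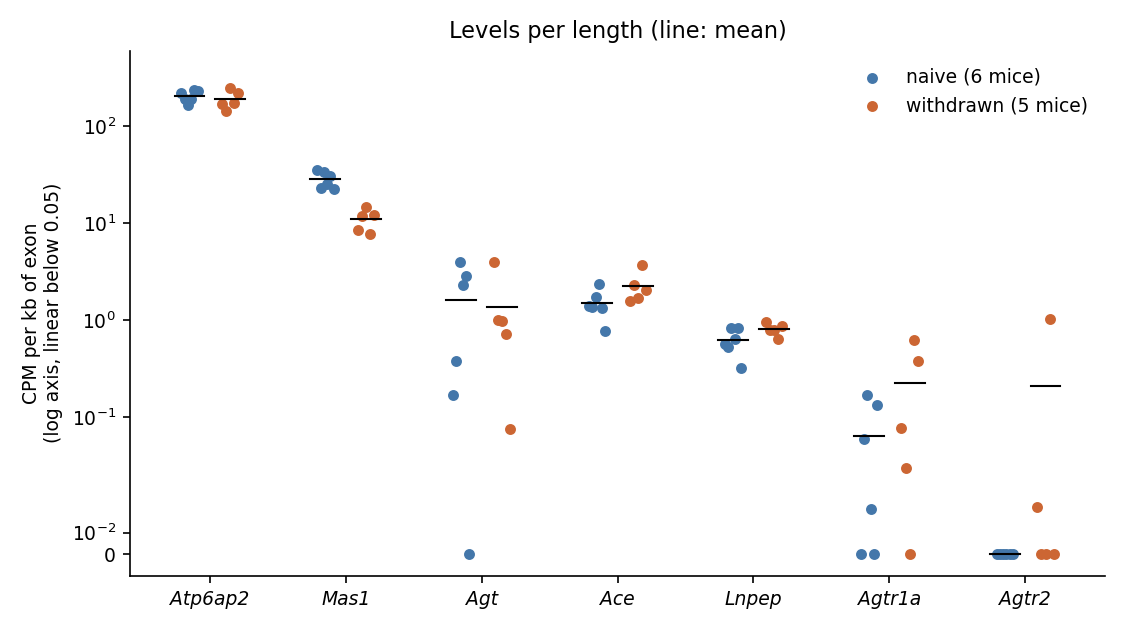
CPM per kilobase of exon (y axis, log scale, linear below 0.05) of the 7 genes in 6 naïve (blue) and 5 withdrawn mice (orange), with group means as lines. Atp6ap2 and Mas1 lie well above the rest, Agt and Ace overlap, and Agtr2 is at 0 in every naïve mouse.

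The wider pathway was read from a list of 29 renin-angiotensin genes (substrate and renin, peptidases, receptors), which includes the 7 above. Of the other 28 besides Mas1, 16 passed the low-count filter, 0 passed both thresholds, an adjusted p no higher than 0.05 and a log2 fold change beyond 0.6 in size (1 of 17093, 0.00585%, over all genes by edgeR), and 3 had an unadjusted p under 0.05, each higher in withdrawn mice (854 of 17093, 5%, over all genes). DESeq2, run as an alternative, called 1 of them (362 of 21849 genes with an adjusted p, 1.66%). The fitted change was above 0 for 11 and below 0 for 5 of the 16, with a median of 0.42, against a median of 0.02 over all tested genes, of which 51.8% were above and 48.2% below 0. The 3 genes, Anpep, Agtr1b and Enpep, passed the low-count filter only with the help of their counts in withdrawn mice. Agtr1b, for instance, had 0, 0, 0, 46, 0 and 10 counts in naïve mice. The filter thus tilts these counts and the median towards higher values in withdrawn mice, and they are a description.

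At the head of the pathway, renin itself (Ren1) had at most 0.984 CPM in any mouse. Ctsd, a lysosomal protease that can act on angiotensinogen in place of renin, stood at 186 ± 22.0 CPM in naïve mice and at 232 ± 58.6 CPM in withdrawn mice (SD over 6 and 5 mice), a log2 difference of 0.32 (adjusted p = 0.769, edgeR).

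Of 12 peptidases with enough counts, Ace and Lnpep included, 0 passed the edgeR test. The most abundant per length were Ctsa (cathepsin A, a lysosomal carboxypeptidase), at 26.7 ± 8.39 CPM per kb in naïve mice, and Thop1 (thimet oligopeptidase), at 18.4 ± 4.15 (SD, n = 6 each). Their log2 differences were 0.08 (SE 0.25) and -0.10 (SE 0.21), with adjusted p of 0.974 and 0.964 (edgeR).

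The aminopeptidase Anpep, which degrades angiotensin III, stood at 0.430, 1.15, 0, 0.699, 0 and 0.864 CPM in naïve mice. In withdrawn mice it stood at 26.1, 0.448, 7.19, 23.0 and 6.08 CPM. All withdrawn mice except replicate 2 were above every naïve mouse. The log2 fold change was 4.54 (SE 1.14, unadjusted p = 0.00140, adjusted p = 0.202 by edgeR; adjusted p = 0.000807 by DESeq2), so it passed with DESeq2 and not with edgeR, except that edgeR called it without withdrawn replicate 2 (adjusted p = 0.0364). Without the 3 mice with conflicting labels the adjusted p was 0.691, and the difference then rested on withdrawn replicate 1.

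Enpep, the aminopeptidase that converts angiotensin II to angiotensin III, stood at 0 to 3.01 CPM in naïve mice. In withdrawn mice its range was 1.68 to 11.5 CPM. The log2 fold change was 2.42 (SE 1.08, adjusted p = 0.661, edgeR). Withdrawn replicates 1, 3 and 4 were above every naïve mouse, and withdrawn replicates 2 and 5 were within the naïve range.

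Agtr1b is the second AT1 receptor gene of the mouse, and its sequence is nearly the same as that of Agtr1a, so the split of reads between them is uncertain. It was at 0 in 4 naïve mice and at 2.68 and 0.617 CPM in naïve replicates 4 and 6. Withdrawn mice had 26.8, 0, 9.30, 16.7 and 9.06 CPM. All withdrawn mice but replicate 2 were above every naïve mouse, and the log2 fold change was 4.44 (SE 1.53, unadjusted p = 0.0120, adjusted p = 0.453, edgeR). Agtr1a did not share this pattern, since withdrawn replicates 1 and 3 had 3 and 0 counts of it. Without the 3 mice the adjusted p for Agtr1b was 0.789, and its difference too rested on withdrawn replicate 1.

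Agtr1b and Anpep were high in the same 4 withdrawn mice as the fibroblast markers, and Enpep in 3 of these, since in withdrawn replicate 5 it was at 1.70 CPM. The fibroblast sum was 1356, 18.4, 685, 1001 and 241 CPM in withdrawn replicates 1 to 5. The 4 mice highest in this sum were also the 4 highest in Agtr1b and in Anpep. The same 4 mice were highest in the astrocyte sum (359 to 835 CPM, naïve at most 334). They were also highest in the sum of 10 microglia markers (31.6 to 46.6 CPM, naïve at most 26.3). The endothelial, mural and oligodendrocyte sums did not share this order. Which cells the Agtr1b and Anpep RNA came from was not tested. Of the 10 fibroblast markers 10 had a count and 8 were tested, with all 8 higher in withdrawn mice. With the fibroblast score as a covariate, the log2 fold changes were 0.64 for Agtr1b, 1.20 for Anpep and 1.00 for Enpep. Their adjusted p were 0.975, 0.906 and 0.946 (edgeR). This covariate was chosen after seeing the data. The fibroblast sum of 4 of the 5 withdrawn mice was above every naïve mouse, so this fit cannot tell the score and the group apart. With the score of all non-neuronal markers as the covariate instead, another of the alternatives, the log2 fold changes were 3.67, 3.83 and 2.14. The adjusted p were then 0.745, 0.219 and 0.781 (edgeR).

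**Figure D4:**
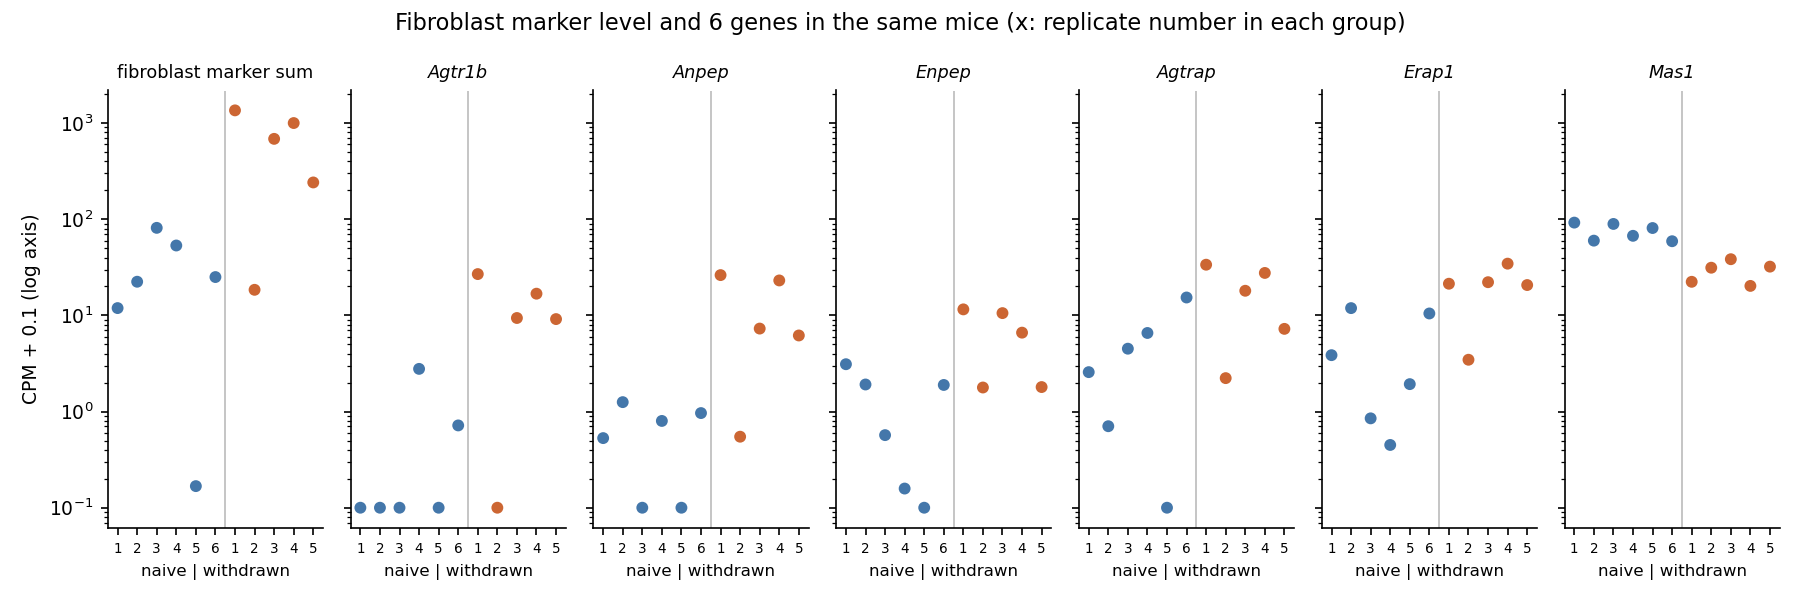
CPM plus 0.1 (y axis, log scale, shared) of the summed fibroblast markers, Agtr1b, Anpep, Enpep, Agtrap, Erap1 and Mas1 in each naïve (blue) and withdrawn mouse (orange), by replicate number (x axis). Withdrawn replicate 2 is low for the fibroblast sum and for the 5 genes beside it. Its Mas1 value is 31.2 CPM, and the other withdrawn mice are at 20.2 to 38.3 CPM. A link between the fibroblast sum and Mas1 was not tested.

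Of 10 receptor partners, 9 were tested and 0 were called. The most abundant per length were the G protein subunits Gna11, at 47.6 ± 12.8 CPM per kb, and Gnaq, at 39.7 ± 6.13 CPM per kb in naïve mice (SD over 6 mice). Agtrap, which binds the AT1 receptor and promotes its internalization, stood at 0 to 15.3 CPM in naïve and 2.13 to 33.6 CPM in withdrawn mice (log2 fold change 1.86, SE 1.01, adjusted p = 0.771, edgeR), and with the fibroblast score as a covariate its sign turned (-0.73). Gnaq, the G protein through which the AT1 receptor activates phospholipase C, was at 245 ± 37.9 CPM in naïve and 189 ± 26.1 CPM in withdrawn mice (SD over 6 and 5 mice; log2 fold change -0.37, SE 0.15, unadjusted p = 0.0248, adjusted p = 0.567, edgeR). Arhgef1, a guanine nucleotide exchange factor downstream of the AT1 receptor, was at 40.2 ± 13.0 CPM in naïve and 60.1 ± 12.5 CPM in withdrawn mice (log2 fold change 0.58, SE 0.27, unadjusted p = 0.0476, adjusted p = 0.686, edgeR).

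**Figure D5:**
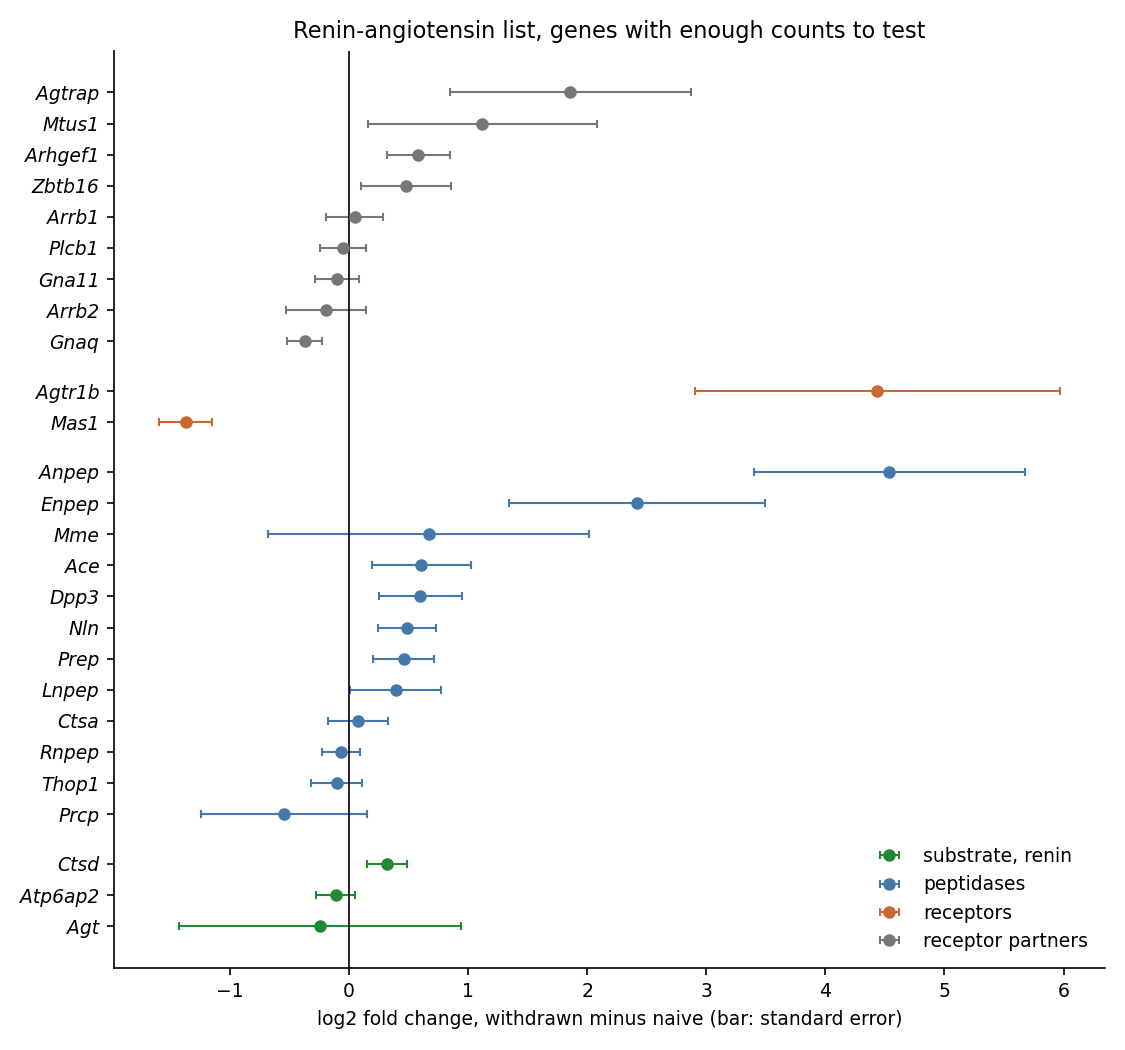
Fitted log2 fold change with its standard error (x axis, withdrawn minus naïve) for the tested genes of the renin-angiotensin list and of the receptor partners (y axis), coloured by role. Anpep, Agtr1b and Enpep lie highest, at 4.54, 4.44 and 2.42, with wide errors, and Mas1 lies lowest, at -1.37.

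Atp6ap2 belongs to the vacuolar proton pump, which acidifies lysosomes and synaptic vesicles, and 15 further genes of that pump were set beside it. Of these 15, 14 had a fitted change below 0, with a median of -0.31, 3 had an unadjusted p under 0.05 and lower values in withdrawn mice (380 of 17093, 2.22%, over all genes), and 0 were called. The 3 were Atp6v1e1 (log2 fold change -0.42, SE 0.18), Atp6v1d (-0.38, SE 0.17) and Atp6v0e2 (-0.32, SE 0.15), with adjusted p of 0.622, 0.670 and 0.692 (edgeR). The median over the 8245 tested genes with a mean of at least 20 CPM was -0.07, and 59.9% of them were below 0. The pump genes highest per length were Atp6v1g2, at 510 ± 116 CPM per kb in naïve and 391 ± 70.6 in withdrawn mice, and Atp6v0b, at 286 ± 74.2 and 224 ± 33.4 (SD over 6 and 5 mice), neither past the test. The change of Atp6ap2, -0.11, was smaller in size than the pump's median.

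Lnpep belongs to the M1 family of aminopeptidases, of which 8 were tested and 0 called by edgeR. Npepps, the puromycin-sensitive aminopeptidase, and Lta4h were highest per length, at 15.2 ± 2.79 and 14.2 ± 3.33 CPM per kb in naïve mice (SD over 6 mice). Besides Anpep and Enpep, Erap1, which trims peptides in the endoplasmic reticulum, was at 0.349 to 11.8 CPM in naïve mice. In withdrawn mice Erap1 was at 21.2, 3.36, 22.0, 34.4 and 20.6 CPM, with withdrawn replicate 2 again apart. Its log2 fold change was 2.07 (SE 0.82, adjusted p = 0.563, edgeR). Lta4h, which makes leukotriene B4, was at 63.8 to 120 CPM in naïve and 49.8 to 65.4 CPM in withdrawn mice (log2 fold change -0.57, SE 0.19, unadjusted p = 0.00860, adjusted p = 0.397, edgeR). Rnpep, aminopeptidase B, was even across mice, at 64.2 to 100.4 CPM.

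Of 11 genes listed as Mas and Mas-related receptors, Mas1 included, 8 had a count and 2 passed the filter, Mas1 and Mrgpre. Mrgpre, an orphan receptor of the same family, was at 7.16 to 29.5 CPM in naïve and 9.51 to 29.2 CPM in withdrawn mice. Its log2 fold change was 0.25 (SE 0.46, adjusted p = 0.959, edgeR). Mrgprh, the nearest family member on the chromosome, 7891 bases from Mas1, had at most 2 counts in a mouse.

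Among the genes around Mas1 that could be tested, none had a fitted fall as large, although Mas1 was picked for its fall. Within 250 kb there were 22 other annotated genes, of which 10 passed the filter, 5 with a fitted change above 0 and 5 below. The 5 below 0 (Tcp1, Wtap, Mrpl18, Acat2 and Sod2) had naïve means of 38.7 to 351 CPM. Of those above 0, Igf2r had a naïve mean of 19.0 CPM. Airn, Pnldc1, Gm15946 and Tcp10b, also above 0, were low, at 0.577 to 1.56 CPM. The lowest was Wtap, at -0.52 (SE 0.32). Igf2r, the imprinted neighbour 71415 bases away, was at 0.48 (SE 0.35), and Airn, the noncoding RNA that crosses Mas1 on the other strand, was at 0.87 (SE 1.03) with at most 40 counts in a mouse. Tcp1, a chaperonin subunit, was at -0.43 (SE 0.18) and was the single neighbour with an unadjusted p under 0.05 (0.0356). Pnldc1 had the highest value, 2.25 with an SE of 1.29, and means of 1.04 CPM in naïve and 5.04 CPM in withdrawn mice.

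The genes whose log2 CPM went most closely with Mas1 over the 11 mice, among 11833 genes with a mean of at least 5 CPM, were Erich1, Cotl1, Txndc9, Fam169a and Acbd6. Since they were picked for likeness to a gene that separates the groups, their levels are a description. Erich1 stood at 8.35 to 14.2 CPM in naïve and 3.02 to 6.07 CPM in withdrawn mice, without overlap. Cotl1, an actin-binding protein gene, stood at 82.6 to 113 and 48.3 to 93.9 CPM. Those most opposed to Mas1 were the transcription factor genes Tbx15 and Foxd1 and the cytokine gene Csf1. Tbx15 was at 0 to 0.757 CPM in naïve and 5.93 to 41.4 CPM in withdrawn mice, and Csf1 at 7.03 to 12.4 and 18.7 to 51.1 CPM.

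With the group means removed, the genes closest to Mas1 were Ldlrad4, Mcub, Nap1l1, Tmem28 and Wnt7b, with Pearson r from 0.887 to 0.949 over the same 11 mice, values that are high partly because they are the largest of 11833. By the same measure Hebp2, Amer3 and Zfp945 were closest to Ace (r 0.819 to 0.883), Emc8, Tmem91 and Rap1b to Atp6ap2 (r 0.921 to 0.946), and Igsf3, Letm1 and Egr2 to Lnpep (r 0.906 to 0.913).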

How the data were processed

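RNA of cells sorted as mPFC CRF1+ neurons was sequenced from 6 naïve and 5 withdrawn mice. Reads were trimmed with cutadapt, aligned to GRCm38 by STAR 2.5.2a against Ensembl release 91, and tallied for each gene by HTSeq 0.11.0. What the authors deposited are the resulting raw counts, 1 table per mouse, neither normalized nor pooled. The authors tested them with DESeq2 1.20.0. Symbols, coordinates and exon lengths came from GENCODE M21 on GRCm38, in which 53360 of 53465 identifiers have a symbol.

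Groups were compared with edgeR 4.0.16 (R 4.3.3): TMM, filterByExpr by group (minimum count 10, total 15), the quasi-likelihood test and Benjamini-Hochberg adjustment over 17093 genes. Single genes also had two-sided exact permutation tests on log2 CPM (prior count 2) over 462 splits of the mice, whose smallest possible p is 0.00216. Each library is 1 mouse.

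The alternatives were DESeq2 1.42.0, limma 3.58.1 voom weights, other scalings and filters, covariates, a replicate block and leaving out mice. The fibroblast covariate was chosen after seeing the data. The fits were tested on simulated counts. No pair of libraries was near-identical (chi-square per degree of freedom at least 25.6 within groups).

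The 7 members and the gene lists were chosen with earlier results of these data known. Further named genes were the genes of the lists with an unadjusted p under 0.05 or the highest level per length of a role, the annotated genes within 250 kb of Mas1, those most like or unlike a member across mice, and 3 genes that check the sort. Marker sums, Sst, Aldoc, Gfap, Gja1, Gjb6, Ren1, Agtrap and Rnpep were added as context after their values were seen. A further gene of the pathway list is not reported here.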

Additional observations from a re-analysis of the deposited data

Results flagged for a closer look

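In 25 sets of values (13 renin-angiotensin or related genes in 6 naïve or 5 withdrawn mice, sets without a count left out), a mouse stood apart from the rest of its group on log2 CPM in 3. For continuous values chance flags about 1 in 20. That rate does not hold for sets that include 0 counts, such as those of Agtr2 and Agtr1b, where the prior count sets the log2 CPM. Agtr2 was far above the other withdrawn mice in withdrawn replicate 4, at a log2 CPM of 1.84 (28 counts). This was the library with the fewest counts on genes and the largest share of reads on no annotated gene. Agtr1b in withdrawn replicate 2, with 0 counts, was far below the others, at a log2 CPM of -2.80. Erap1 was low in the same mouse, at a log2 CPM of 1.81 (30 counts), and that mouse also had the lowest fibroblast marker sum of the withdrawn mice (18.4 CPM). Mas1, which was picked for its fall in these same values, had no such mouse in either group.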

How the results depend on the processing

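Over all 22 alternative fits the Mas1 log2 fold change ran from -1.54 (without the 3 mice with conflicting labels) to -1.17 (fibroblast score as a covariate). That covariate was added after seeing the data. With 1 mouse left out the Mas1 value ran from -1.51 to -1.26. Mas1 was picked for its fall in these same mice, so refits of these counts describe its size and do not test it. The count of genes called over all genes, 1 by edgeR, was 362 by DESeq2, 137 without a filter, 30 with at least 10 counts in every mouse, 26 with the number of detected genes and 14 with the non-neuronal score as a covariate, and 0 with the fibroblast score, with the replicate block or without the 3 mice. With 1 mouse left out it ran from 0 to 193, the highest without withdrawn replicate 2. Of the 28 other listed genes, 0 were called by edgeR and 1, Anpep, by DESeq2, and 0 to 1 with 1 mouse left out. Those with an unadjusted p under 0.05 numbered 3, and 8 without a filter, 5 by DESeq2, 0 with at least 10 counts in every mouse, where Agtr1b, Anpep and Enpep were no longer tested, and 0 with the fibroblast score. Leaving out 1 mouse gave 2 to 4.

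The sign of Agt turned with voom weights (0.32), without the 3 mice (0.62), with the non-neuronal score (0.18), and without naïve replicate 3 (0.26) or withdrawn replicate 5 (0.06), and with 1 mouse left out it ran from -1.22 to 0.26. The sign of Atp6ap2 turned with voom weights (0.030) and that of Agtrap with the fibroblast score (-0.73). The causes were not tested. Same-numbered mice are different animals with correlations of their deviations from -0.200 to 0.182, so the numbers share only a name, and with the replicate block, fitted without naïve replicate 6, the Mas1 value was -1.45. The order of the members by level per length in naïve mice was the same with the length of the longest transcript. Agt, Agtr1a and Agtr2 are limited by depth.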
